A study of Mus musculus with 16 samples.

Results

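The genes described here are 10 genes of matrix remodelling: the matrix metalloproteinase genes Mmp2, Mmp3, Mmp9, Mmp12 and Mmp14, the genes of their tissue inhibitors Timp1, Timp2, Timp3 and Timp4, and Adamts1, the gene of a related secreted protease. They were found by their symbol in the platform annotation, 10 of 19938 genes measured. The only measured value in the rule is brightness: a gene's transcript cluster, a probe group of the array, was chosen by its mean over all 16 arrays. Each of the 10 genes had 1 cluster that carried its symbol alone, so that this decided nothing. The set itself was selected on earlier results of these data, among them large light responses of Mmp3, Mmp12 and Timp1, and the p-values below describe the genes without being independent evidence. RNA came from 8 male Balb/cJ mice, an albino strain, aged 10 weeks. The light group was 4 mice that had spent 18 hours under 10000 lux from cool white fluorescent lamps, with tissue taken 4 hours later. The control group was 4 mice that had stayed on a 12-hour light-dark cycle. From each mouse, isolated retinal pigment epithelium (RPE), a cell sheet behind the photoreceptors, and the neurosensory retina (NSR), with its photoreceptors, neurons and glia, were each measured on 1 array. This gave 4 groups of 4: light-exposed RPE, control RPE, light-exposed NSR and control NSR. Bright light and the change of light schedule cannot be told apart in this design.

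Matrix metalloproteinases are zinc enzymes that cut proteins of the extracellular matrix and of cell surfaces, and most are made as inactive precursors. Tissue inhibitors of metalloproteinases (TIMPs) block them by binding the catalytic site. TIMP3 is bound to the matrix and is a component of Bruch's membrane, on which the RPE rests, and mutations of the human gene cause Sorsby fundus dystrophy. Promoters of several metalloproteinase genes are known to respond to AP-1, the Fos and Jun transcription factors.

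The promoters of Mmp3, Mmp12 and Timp1 are shown because these 3 genes had the largest light responses of the 10. Each is the 250 bases before the gene's start in RefSeq on GRCm38.p6, plus strand, 5′ to 3′, with AP-1 patterns (TGANTCA) in capitals: Mmp3 from chr9:7445572-7445821, Mmp12 from chr9:7344147-7344396 and Timp1 from chrX:20869916-20870165.
Mmp3: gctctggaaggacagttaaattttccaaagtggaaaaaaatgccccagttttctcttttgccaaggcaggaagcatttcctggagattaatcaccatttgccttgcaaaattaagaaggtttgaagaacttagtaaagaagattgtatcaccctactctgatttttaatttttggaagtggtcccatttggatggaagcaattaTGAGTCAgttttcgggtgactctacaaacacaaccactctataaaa
Mmp12: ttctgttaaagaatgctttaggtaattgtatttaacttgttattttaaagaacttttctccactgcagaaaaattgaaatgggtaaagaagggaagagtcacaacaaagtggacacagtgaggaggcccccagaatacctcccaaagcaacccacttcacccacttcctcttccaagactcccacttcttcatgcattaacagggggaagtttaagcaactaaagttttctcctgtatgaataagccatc
Timp1: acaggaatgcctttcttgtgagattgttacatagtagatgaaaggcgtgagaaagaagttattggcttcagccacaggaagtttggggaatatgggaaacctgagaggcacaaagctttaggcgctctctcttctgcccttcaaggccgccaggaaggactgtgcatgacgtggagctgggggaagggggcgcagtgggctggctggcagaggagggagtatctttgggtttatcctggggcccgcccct
The Mmp3 window held 1 AP-1 pattern, at -46 to -40 counted back from the gene's start, and a TATA pattern (TATAAA) at -7 to -2. The windows of Mmp12 and Timp1 held neither, and none of the 3 held the STAT pattern TTCNNNGAA. Windows of this length were found for 8 of the 10 genes, and Mmp3 was the only 1 of these 8 with an AP-1 pattern. Of 27025 promoters of the same length, 6.85% held an AP-1 pattern, 7.14% a STAT pattern and 13.0% a TATA pattern, on either strand.

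Values are the deposited log2 expression values, so that a difference of 1 is a doubling. Array medians lay between 6.38 and 6.43 in the RPE and between 6.52 and 6.57 in the NSR. Arrays of 1 group correlated with each other at 0.987 to 0.991 on average. The dimmest 25% of genes had means below 5.63, and the values hold no measure of background, so that the size of a fold against so dim a group is uncertain. Among fixed markers, those of the RPE averaged 11.04 to 11.24 in light-exposed RPE, 11.50 to 11.61 in control RPE, 6.25 to 6.32 in light-exposed NSR and 6.30 to 6.73 in control NSR. Rod markers averaged 7.86 to 9.0 in light-exposed RPE, 8.34 to 8.83 in control RPE, 11.43 to 11.68 in light-exposed NSR and 12.07 to 12.11 in control NSR, so that rod RNA was present in the RPE arrays. Fibroblast and mural cell markers averaged 7.61 to 7.83 in light-exposed RPE, 7.53 to 7.95 in control RPE and 6.30 to 6.51 in the NSR. In control mice 10 of these 12 markers were higher in the RPE than in the NSR and 1 was lower. Over all genes 30.8% were higher and 24.2% lower. Of 11 endothelial markers 4 were higher and 3 lower in control RPE. The part of such cells in the RPE results was not tested. Single RPE arrays stood apart in other markers. Corneal, conjunctival and ciliary markers averaged 8.23 in RPE light 2, while the rest of that group had 6.6 to 6.65. Lens markers averaged 7.33 in RPE control 2, and 6.44 to 6.45 on the remaining control RPE arrays. RPE light 1 had the most rod RNA of its group, at 9.0, and the rest had 7.86 to 8.20. Results in the RPE are also given below without these 3 arrays.

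In the RPE, light raised 2 metalloproteinase genes and 1 inhibitor gene and lowered 2 inhibitor genes, while the other 5 genes did not pass the test. Mmp3 encodes stromelysin-1, which degrades proteoglycans and laminin and can activate other metalloproteinase precursors. It stood at 10.63, 10.71, 11.28 and 10.42 in light-exposed RPE, against 5.12, 5.64, 5.38 and 4.96 in control RPE. The control arrays all lay near the dim end and the light-exposed arrays far above them. The difference was 44.8-fold (log2 difference 5.49 with SE 0.19 and n = 4 in each group; adjusted p = 2.89e-07 by limma over all genes), the second largest rise of the 19938 genes. Because Mmp3 averaged 5.28 in control RPE, below 5.63, the size of this fold is uncertain.

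Mmp12 encodes macrophage elastase, which cuts elastin and other matrix proteins. Its values were 10.40, 10.68, 11.47 and 10.00 in light-exposed RPE and 5.76, 6.15, 6.30 and 5.93 in control RPE, again without overlap. It rose 24.3-fold (log2 4.60, SE 0.26, limma adjusted p = 5.64e-06). The 19 macrophage and microglia markers averaged 7.40 to 7.91 in light-exposed RPE and 7.26 to 7.68 in control RPE. Of them 3 rose and 1 fell: the phagocyte lysosomal gene Cd68 by 2.76 on the log2 scale, the endotoxin co-receptor gene Cd14 by 1.10 and the integrin gene Itgam by 0.54, while Csf1r, the receptor for the growth factor of macrophages, fell by 1.14. RPE light 3 had the highest Mmp12 and the lowest mean of these markers (7.40) among the light-exposed RPE arrays. The low mean was not particular to these markers. RPE light 3 was also lowest in markers of the RPE (11.04), rods (7.86), fibroblasts and mural cells (7.61) and endothelium (6.89). In neutrophil markers it was highest (5.48). Of 11 neutrophil markers 2 rose, S100a8 and S100a9, and the other 9 did not pass the test. The neutrophil list averaged 5.23 to 5.48 in light-exposed RPE and 5.19 to 5.25 in control RPE. Over all genes 17.6% were called in this comparison, and both lists stood near that share. The part of macrophages, microglia and neutrophils in the Mmp12 and Mmp3 results was not tested.

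Timp1 encodes an inhibitor that binds many metalloproteinases and is known to be induced in inflammation. It stood at 8.79, 8.91, 9.66 and 8.51 in light-exposed RPE and 5.49, 5.63, 5.95 and 5.58 in control RPE. It rose 9.86-fold (log2 3.30, SE 0.21, limma adjusted p = 1.26e-05), the eighth largest rise of all genes. Timp1 averaged 5.66 in control RPE, close to the mark of 5.63, so that the size of this fold is uncertain too. The gene (chrX:20870166-20874737) lies within Syn1, a synapsin gene, whose own value differed by 0.25 between light-exposed and control RPE (adjusted p = 0.34).

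Timp2 and Timp3 went the other way in the RPE. Timp3, the matrix-bound inhibitor (chr10:86300412-86349505, within Syn3), had 12.08, 12.06, 11.72 and 12.06 in light-exposed RPE, against 12.63, 12.60, 12.66 and 12.61 in control RPE. Every light-exposed array lay below every control array, and RPE light 3 was lowest. Timp3 was 1.56-fold lower (log2 -0.65, SE 0.08, limma adjusted p = 0.000621). Timp2, which besides inhibiting helps MMP14 to activate the MMP2 precursor (chr11:118301061-118355411), had 10.16, 10.01, 9.89 and 10.08 in light-exposed RPE and 10.80, 10.77, 10.80 and 10.88 in control RPE. It was 1.72-fold lower (log2 -0.78, SE 0.07, adjusted p = 7.65e-05), also without overlap. Of 12 RPE markers 8 fell and 0 rose in the same comparison, with a median log2 difference of -0.31, and their part in the fall of both inhibitor genes was not tested. In tissue samples, fewer cells of a type and less RNA per cell cannot be told apart.

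The other 5 genes did not pass the test in the RPE. Mmp14, a membrane-anchored metalloproteinase, averaged 7.71 ± 0.19 in light-exposed RPE and 7.70 ± 0.16 in control RPE (SD, n = 4), with a 95% interval of the difference from -0.23 to 0.25. Adamts1, whose product cuts the proteoglycans versican and aggrecan, averaged 8.06 ± 0.17 in light-exposed RPE and 7.88 ± 0.46 in control RPE, with an interval from -0.27 to 0.62. Its control arrays ranged from 7.23 to 8.23. The gelatinase genes differed by 0.05 for Mmp2 (interval -0.14 to 0.25) and 0.16 for Mmp9 (-0.02 to 0.34), and Timp4 by 0.09 (-0.07 to 0.25). Mmp9 and Timp4 averaged 5.7 and 5.68 in control RPE, close to the mark of 5.63, so that small changes could have gone unseen. Over all genes 17.6% were called in this comparison, 9.08% higher and 8.53% lower, against 3 higher and 2 lower of the 10. The groups did not overlap for these 5 of the 10 genes, and for 22.1% of all genes. The median log2 difference was 0.13 over the 10 genes and -0.01 over all genes. Without RPE light 1, RPE light 2 and RPE control 2 the 5 calls held, with log2 differences of 5.70 for Mmp3, 4.74 for Mmp12, 3.41 for Timp1, -0.84 for Timp2 and -0.74 for Timp3.

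**Figure D1:**
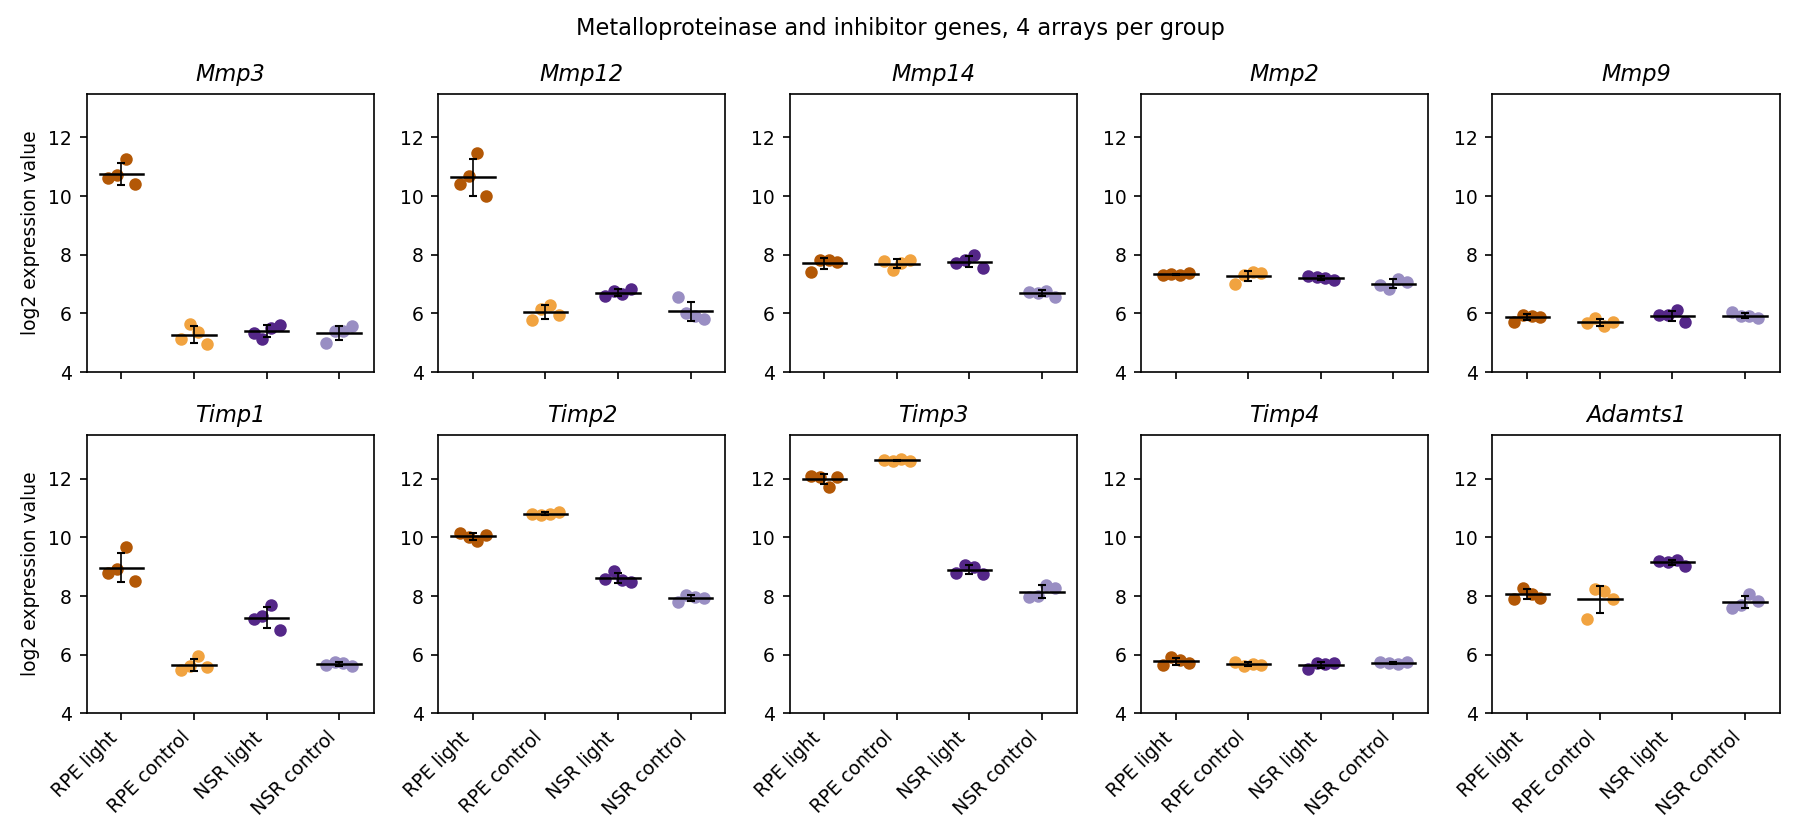
Log2 expression values of the 10 genes (y axis, the same in each panel) on the 4 arrays of each group (points), with the group mean (line) and SD (bar). Mmp3 and Mmp12 are high only in light-exposed RPE, where they lie between 10.00 and 11.47, and Timp2 and Timp3 are highest in control RPE.

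In the NSR, light raised 6 of the 10 genes: Mmp12, Mmp14, Timp1, Timp2, Timp3 and Adamts1. None was called lower by limma, nor was any lower at an unadjusted p under 0.05, where 7 were higher. Over all genes, 15.1% were called here, 8.87% higher and 6.24% lower. The groups did not overlap for these 6 of the 10 genes, and for 20.7% of all. The median log2 difference was 0.66 over the 10 genes and -0.02 over all genes. Markers of other retinal cells moved in the same comparison: all 10 rod markers fell, and of 10 markers of Mueller glia and astrocytes 2 rose and 6 fell. The glial filament genes Vim and Gfap rose by 1.67 and 1.45 on the log2 scale, while Rlbp1, a retinoid-binding protein gene, fell by 1.53 and Glul, the glutamine synthetase gene, fell by 0.88. This list averaged 8.45 to 8.66 in light-exposed NSR and 8.88 to 8.97 in control NSR, and the part of these cells in the results for the 10 genes was not tested.

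Timp1 had 7.21, 7.32, 7.71 and 6.84 in light-exposed NSR, against 5.65, 5.75, 5.73 and 5.61 in control NSR. All light-exposed arrays lay above the control arrays, which were within 0.13 of each other. It rose 3.00-fold (log2 1.59, SE 0.14, limma adjusted p = 1.16e-05), from a control mean of 5.69 that was close to the mark of 5.63.

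Adamts1 (chr16:85793827-85803113) had 9.20, 9.17, 9.22 and 9.04 in light-exposed NSR and 7.61, 7.70, 8.07 and 7.85 in control NSR. It rose 2.54-fold (log2 1.35, SE 0.09, adjusted p = 1.58e-06). Mmp14 (chr14:54431598-54442456), whose product activates the MMP2 precursor at the cell surface, had 7.73, 7.81, 7.99 and 7.55 in light-exposed NSR and 6.74, 6.68, 6.78 and 6.56 in control NSR. It rose 2.11-fold (log2 1.08, SE 0.09, adjusted p = 7.33e-06). For both genes the groups did not overlap, and the lowest light-exposed array stood at least 0.77 above the highest control array.

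Both inhibitor genes that fell in the RPE rose in the NSR. Timp3 had 8.78, 9.05, 9.01 and 8.76 in light-exposed NSR and 7.97, 7.99, 8.38 and 8.29 in control NSR, and rose 1.67-fold (log2 0.74, SE 0.11, adjusted p = 0.000514). Timp2 had 8.59, 8.87, 8.54 and 8.47 in light-exposed NSR and 7.81, 8.03, 7.97 and 7.93 in control NSR, and rose 1.60-fold (log2 0.68, SE 0.09, adjusted p = 0.000269). Neither gene's groups overlapped. Of 12 RPE markers, 0 rose and 3 fell in the same comparison by limma, and 0 were higher at an unadjusted p under 0.05. The part of RPE tissue in these values was not tested. The synapsin genes Syn1 and Syn3, in which Timp1 and Timp3 lie, differed by 0.07 and 0.04 between light-exposed and control NSR, with adjusted p = 0.526 and 0.826.

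Mmp12 had 6.6, 6.75, 6.65 and 6.84 in light-exposed NSR and 6.55, 6.01, 5.91 and 5.82 in control NSR. NSR control 1 came within 0.05 of the lowest light-exposed array. The rise was 1.56-fold (log2 0.64, SE 0.14, limma adjusted p = 0.00734), and the call was lost in a fit of all 16 arrays, which share 1 spread (adjusted p = 0.0728). Macrophage and microglia markers rose too, 8 of 19 with none lower, and averaged 6.20 to 6.44 in light-exposed NSR and 5.97 to 6.08 in control NSR. Their part in the Mmp12 result was not tested.

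Mmp3 stayed in the dim range of the NSR, at 5.14 to 5.62 in light-exposed NSR and 4.98 to 5.56 in control NSR, with an interval of the difference from -0.21 to 0.35. Mmp2 averaged 7.22 ± 0.06 in light-exposed NSR and 7.01 ± 0.15 in control NSR (SD, n = 4) and did not pass the test (log2 0.20, adjusted p = 0.119). Mmp9 and Timp4 lay between 5.50 and 6.13 in all 8 NSR arrays, near the dim range, with intervals from -0.19 to 0.20 and from -0.22 to 0.07.

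**Figure D2:**
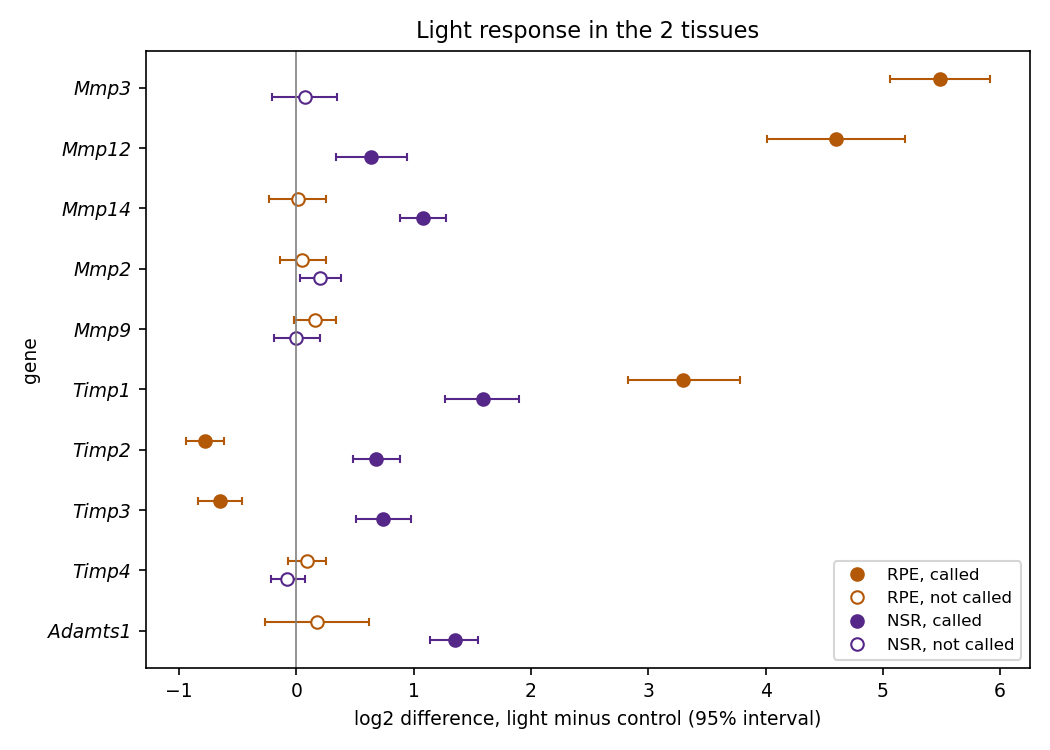
Log2 difference of light minus control (x axis) for each gene (y axis) in the RPE and the NSR, with 95% intervals from limma; filled points passed an adjusted p of 0.05 over all genes. Timp2 and Timp3 lie left of 0 in the RPE, at -0.78 and -0.65, and right of 0 in the NSR, at 0.68 and 0.74.

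The light responses of the tissues were compared directly in a fit of all 16 arrays, as the response in the RPE minus that in the NSR. Of the 10 genes, 7 differed, 3 with the higher response in the RPE and 4 with the higher response in the NSR, where 13.2% of all genes differed, 5.16% and 8.05% in these directions. Mmp3 responded more in the RPE by 5.42 on the log2 scale (SE 0.25, limma adjusted p = 6.32e-10), Mmp12 by 3.96 (SE 0.32, adjusted p = 2.79e-07) and Timp1 by 1.72 (SE 0.28, adjusted p = 0.000384). Timp2 had a difference of -1.46 (SE 0.12, adjusted p = 2.67e-07) and Timp3 of -1.39 (SE 0.14, adjusted p = 4.55e-06). These are 2 of 131 genes, 0.657% of all, that fell in the RPE and rose in the NSR. Timp1 and Mmp12 rose in both tissues, as did 3.23% of all genes, and 5.62% were called in both. Mmp14 and Adamts1, which passed the test in the NSR only, had differences of -1.07 (SE 0.15, adjusted p = 8.05e-05) and -1.17 (SE 0.23, adjusted p = 0.00225). Mmp2, Mmp9 and Timp4 did not differ beyond the test, at -0.15, 0.16 and 0.17.

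In control mice, the largest differences between the tissues among the 10 genes were those of Timp3 and Timp2. These comparisons use the same control arrays as the light comparisons. Timp3 was 22.1-fold higher in control RPE than in control NSR (log2 4.47, SE 0.10, limma adjusted p = 2.12e-16), and Timp2 7.35-fold higher (log2 2.88, SE 0.08, adjusted p = 4.49e-15). Mmp14 was 2.01-fold higher (log2 1.01, SE 0.10, adjusted p = 1.41e-07). For these 3 genes control RPE arrays all lay above control NSR arrays. Mmp2 was called higher (log2 0.26, adjusted p = 0.0134) and Mmp9 lower (-0.22, adjusted p = 0.039), but their arrays overlapped. The call of Mmp9 was lost after centring each array on its median (-0.08, adjusted p = 0.424), and without any 1 of NSR control 1, 2 or 3 or RPE control 1, 3 or 4 (adjusted p = 0.0573 to 0.125). Mmp2 no longer passed when NSR control 2 (adjusted p = 0.057) or RPE control 3 (0.0519) was left out. Mmp3, Mmp12, Timp1, Timp4 and Adamts1 differed by at most 0.08 between the control tissues, and the sign of the first 4 turned under centring. In all, 4 of the 10 genes were higher and 1 lower in control RPE, where 55.0% of all genes were called, 30.8% higher and 24.2% lower. The arrays did not overlap for 3 of the 10 genes, and for 52.2% of all.

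After light, 6 of the 10 genes differed between the tissues. Timp3 was 8.46-fold higher in light-exposed RPE than in light-exposed NSR (log2 3.08, SE 0.10, limma adjusted p = 4.17e-14), and Timp2 2.67-fold higher (log2 1.42, SE 0.08, adjusted p = 7.74e-11). Mmp3 was 41.1-fold higher in light-exposed RPE (log2 5.36, SE 0.18, adjusted p = 3.74e-14), Mmp12 15.2-fold (log2 3.93, SE 0.23, adjusted p = 6.42e-11) and Timp1 3.24-fold (log2 1.70, SE 0.20, adjusted p = 6.96e-07). Mmp3 averaged 5.40 in light-exposed NSR, in the dim range. Adamts1 was 2.14-fold lower in light-exposed RPE (log2 -1.10, SE 0.17, adjusted p = 1.61e-05). Mmp14 averaged 7.71 in light-exposed RPE and 7.77 in light-exposed NSR, with an interval of the difference from -0.28 to 0.16. Thus 5 genes were higher and 1 lower, where 58.0% of all genes were called, 34.4% higher and 23.6% lower. The arrays did not overlap for 7 of the 10 genes, Mmp2 among them although it was not called (log2 0.11, adjusted p = 0.265), and for 51.9% of all. After centring or quantile normalization 8 of the 10 genes were called, with Mmp2 (0.24 under both, adjusted p = 0.0189 and 0.0205) and Timp4 (0.25 and 0.23, adjusted p = 0.00563 and 0.0089) added.

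**Figure D3:**
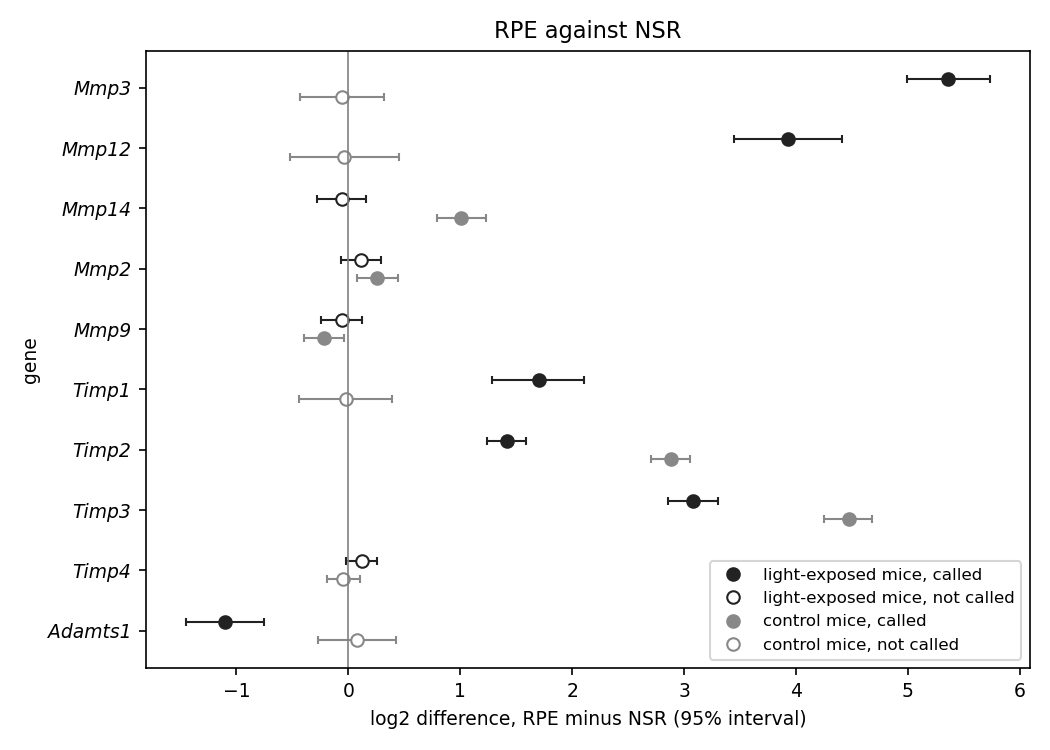
Log2 difference of RPE minus NSR (x axis) for each gene (y axis) in light-exposed mice and in control mice, with 95% intervals from limma; filled points passed an adjusted p of 0.05. Timp2 and Timp3 are higher in the RPE in both, with differences of 1.42 and 3.08 in light-exposed mice and 2.88 and 4.47 in control mice.

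The 4 light-exposed mice can be set side by side across genes. In the RPE, Mmp3, Mmp12 and Timp1 were each highest in mouse 3, then mouse 2, mouse 1 and mouse 4. The excess over the control mean of Mmp3 was 5.35, 5.44, 6.0 and 5.15 in mice 1 to 4, that of Mmp12 4.36, 4.64, 5.43 and 3.97, and that of Timp1 3.12, 3.24, 4.00 and 2.85. Timp2 and Timp3 were lowest in mouse 3, at -0.93 and -0.90 from the control mean, as was the mean of the RPE markers (11.04). The RPE of mouse 3 was also lowest in the means of rod (7.86), macrophage and microglia (7.40), and endothelial markers (6.89), so that this was not particular to RPE markers. In the NSR, Timp1 and Mmp14 had the same order of mice: the excess of Timp1 was 1.53, 1.63, 2.03 and 1.15, and that of Mmp14 1.04, 1.11, 1.29 and 0.86. Mmp9, which did not pass the test in the NSR, had this order too, at 0.0, 0.01, 0.21 and -0.21. The other called genes had other orders there: Mmp12 was highest in mouse 4, Timp2 and Timp3 in mouse 2, and Adamts1 in mouse 3, followed by mouse 1. These orders rest on 4 mice and were noticed in the data, so no test was made.

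**Figure D4:**
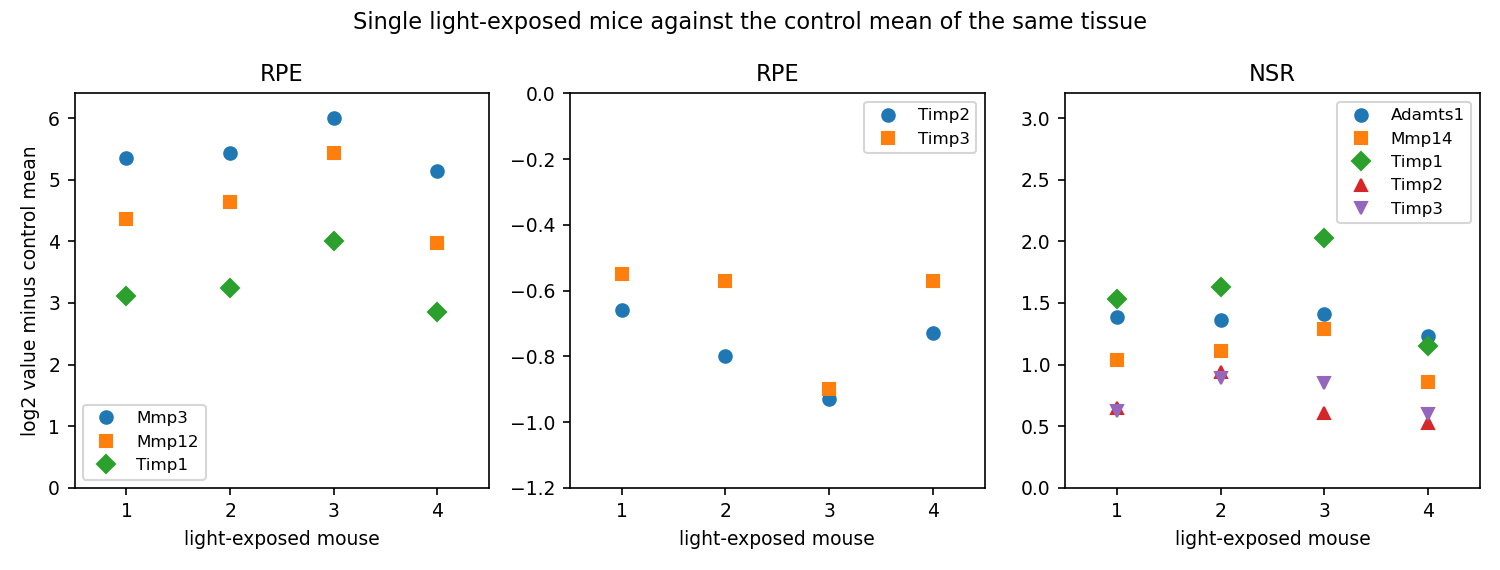
Log2 value of each light-exposed mouse (x axis, mice 1 to 4) minus the control mean of the same tissue (y axis, with its own scale in each panel); symbols stand for genes. Mouse 3 has the highest Mmp3, Mmp12 and Timp1 in the RPE and the lowest Timp2 and Timp3 there. In the NSR, Timp1, Mmp14 and Adamts1 are highest in mouse 3, and Timp2 and Timp3 in mouse 2.

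Mmp3 and Mmp12 lie in a run of metalloproteinase genes on chromosome 9 (chr9:7445822-7455975 and chr9:7344397-7360461, GRCm38.p6). The other 8 measured genes of this run within 1 Mb of Mmp3 (Mmp1a, Mmp1b, Mmp7, Mmp8, Mmp10, Mmp13, Mmp20 and Mmp27) gave 0 calls by limma in either tissue, and 0 at an unadjusted p under 0.05. Their log2 differences lay between -0.13 and 0.15 in the RPE and between -0.16 and 0.08 in the NSR. Mmp1b, which lies between Mmp12 and Mmp3, averaged 3.81 in light-exposed RPE and 3.66 in control RPE. Of these 8, 7 had means in the dimmest 25% of genes, so that small changes could have gone unseen.

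Other genes of the pathway were read from lists chosen with earlier results known. For comparison with the counts of these lists, 17.6% of all genes were called in the RPE, 9.08% higher and 8.53% lower. In the NSR 15.1% were called, 8.87% higher and 6.24% lower. Of 17 further metalloproteinase genes 1 rose and 1 fell in the RPE, and 0 passed the test by limma in the NSR, where 1 was higher and 2 lower at an unadjusted p under 0.05. Mmp19 rose 1.96-fold in the RPE (7.71 ± 0.13 with light and 6.74 ± 0.16 in controls, adjusted p = 0.000115), and the membrane-type Mmp16 was 1.74-fold lower (adjusted p = 0.00162). Of 17 further ADAMTS protease genes 1 rose in the RPE, and 1 rose and 1 fell in the NSR. Adamts5, an aggrecan-cutting protease like Adamts1, rose 1.74-fold in the NSR (8.34 ± 0.12 with light and 7.54 ± 0.12 in controls, adjusted p = 3.25e-05). Of 10 ADAM genes, membrane proteases that shed surface proteins, and their relatives, 3 fell in the RPE and 1 rose in the NSR. Adam22 was 2.67-fold and Adam23 1.61-fold lower in the RPE, and both encode members without protease activity.

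Plasmin, the product of the plasminogen system, can activate metalloproteinase precursors. Of 10 genes of this system, some of them inhibitors, 6 rose in the RPE and 7 in the NSR. In either tissue 0 fell by limma, and 0 at an unadjusted p under 0.05. The median log2 difference of this list was 0.38 in the RPE and 0.39 in the NSR. Over all genes, 9.08% rose in the RPE and 8.87% in the NSR. Among the rises were inhibitor genes of this system, Serpinf2 in the RPE by 0.52 (limma adjusted p = 0.0121) and Serpinb2 in the NSR by 0.73 (adjusted p = 0.0112). Plg, the plasminogen gene itself, differed by 0.02 in the RPE and -0.1 in the NSR and did not pass the test. Plau, the urokinase gene, rose 2.22-fold in the RPE (7.73 ± 0.16 with light and 6.58 ± 0.05 in controls, adjusted p = 2.89e-05). S100a10 and Anxa2, which form a cell-surface complex that binds plasminogen, rose 4.09-fold and 3.76-fold in the NSR. A further list of 9 genes was drawn up as other inhibitors, although Pcolce and Pcolce2 on it encode proteins known as enhancers of procollagen processing. Of these 9 genes, 2 rose and 1 fell in the RPE and 4 rose and 1 fell in the NSR. Spock1, a testican proteoglycan gene, had the largest change of this list in the RPE and was 2.40-fold lower there (8.76 ± 0.26 with light and 10.02 ± 0.06 in controls, adjusted p = 7.91e-05). Reck, which encodes a membrane-anchored metalloproteinase inhibitor and was named after its value was seen, fell by 0.45 on the log2 scale in the NSR (adjusted p = 0.0117). A2m, a broad protease inhibitor, rose 2.33-fold in the RPE (12.50 ± 0.06 with light and 11.28 ± 0.02 in controls) and 6.5-fold in the NSR (9.03 ± 0.17 with light and 6.33 ± 0.04 in controls). Pcolce2 rose in both tissues, by 0.85 in the RPE and 0.78 in the NSR on the log2 scale, and Pcolce rose in the NSR by 0.89. Pcolce2 is therefore among the 2 rises of this list in the RPE, and both are among the 4 in the NSR.

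Of 25 matrix proteins that metalloproteinases or related enzymes can cut, 2 rose and 2 fell in the RPE, and 3 rose and 1 fell in the NSR. This list stood near the shares called over all genes, 17.6% in the RPE and 15.1% in the NSR. Fn1, the fibronectin gene, rose in both, 1.46-fold in the RPE (adjusted p = 0.0391) and 1.63-fold in the NSR (adjusted p = 0.000259), and in the RPE Lamb1, a laminin chain, was 1.49-fold lower and Vcan, the versican gene, 1.47-fold higher. Of 20 genes of known inducers of metalloproteinases, 7 rose in the RPE and 14 in the NSR, and 0 fell in either by limma or at an unadjusted p under 0.05. Their median log2 difference was 0.30 in the RPE and 0.82 in the NSR. Over all genes, 9.08% rose in the RPE and 8.87% in the NSR. Between the tissues of control mice, 14 of the 20 were higher in the RPE and 0 lower, and after light 12 were higher and 2 lower. Over all genes, 30.8% were higher and 24.2% lower in control mice, and 34.4% and 23.6% after light. The part of these inducers in the responses of the 10 genes was not tested. Il6 rose 3.69-fold in the RPE, though it averaged 3.40 in control RPE, in the dim range, and Osmr, a receptor subunit for oncostatin M, rose 2.73-fold. In the NSR Osmr rose 6.12-fold, Lif 5.62-fold and the interleukin gene Il1a 3.66-fold. Among the AP-1 genes, chosen for the pattern in the Mmp3 promoter and after their values were seen, Jun differed by -0.13 in the RPE and 1.42 in the NSR, Fos by -0.37 and 1.00, Fosl1 by 0.30 and 1.42, and Fosl2 by 0.47 and 0.14. Fosb differed by -0.48 and 0.78, Junb by 0.25 and 0.66, and Jund by -0.02 and 0.03. Of these 7 genes, Jun, Fos, Fosl1, Fosb and Junb passed the test in the NSR and Fosl2 in the RPE. Fos was already 4.54-fold higher in control RPE than in control NSR (8.68 ± 0.4 against 6.5 ± 0.08, limma adjusted p = 2.46e-10).

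**Figure D5:**
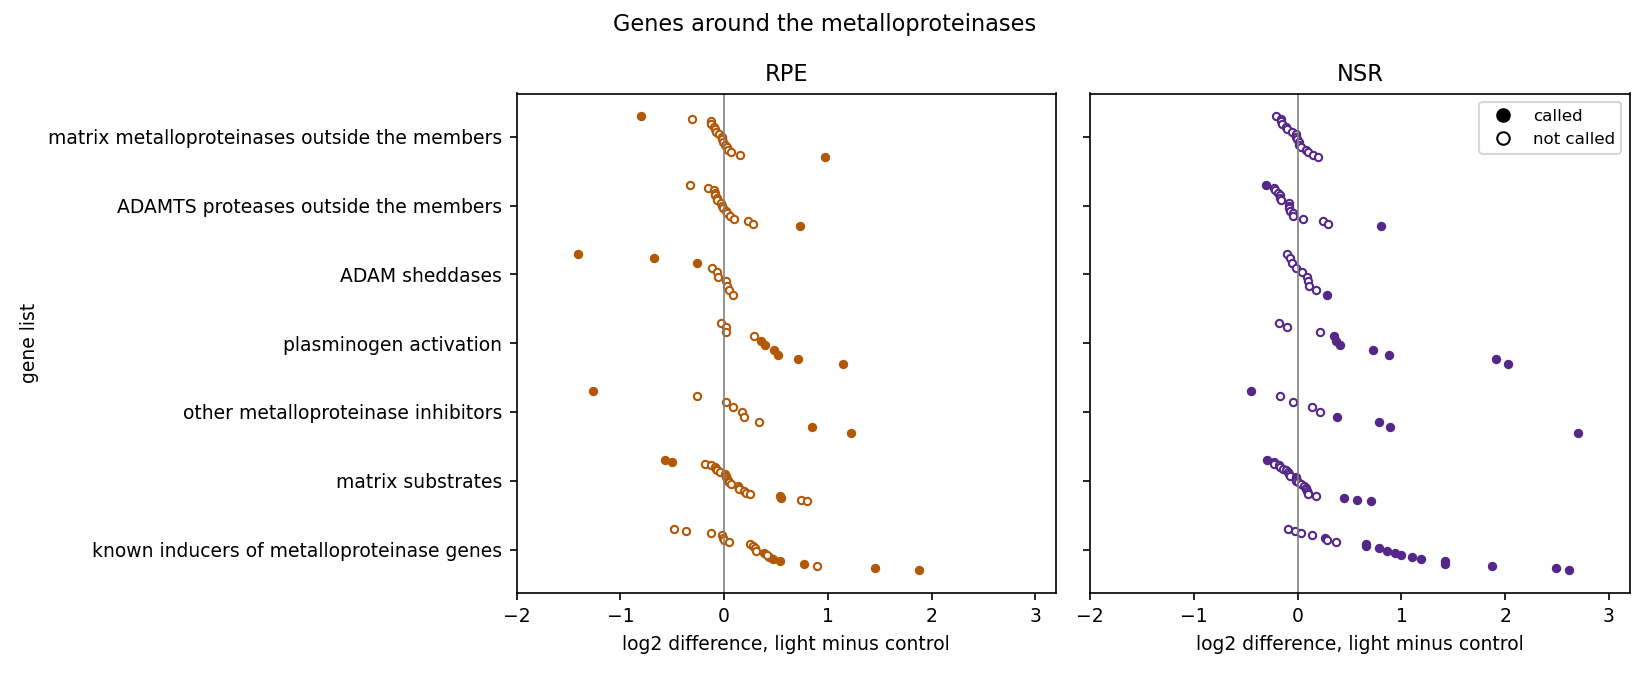
Log2 difference of light minus control (x axis) for the genes of 7 lists (y axis) in the RPE and the NSR; each point is a gene, filled where its adjusted p over all genes was under 0.05. Genes of the plasminogen activation list, which also holds inhibitors, lie right of 0 in both panels where they passed the test. The inducers have medians of 0.30 in the RPE and 0.82 in the NSR.

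Likeness of pattern was measured as the root mean square difference between genes over the 16 arrays, after each gene was centred on its own mean. Nearest to Mmp3 were Serpinb1a, an inhibitor of neutrophil proteases (0.47), Mmp12 (0.60) and the glutathione transferase gene Gsta3 (0.87). Serpinb1a averaged 11.10 in light-exposed RPE and 5.92 in control RPE. In the NSR its means were 5.11 with light and 5.13 in controls. Nearest to Mmp12 were Mmp3 (0.60), the peptide transporter gene Slc15a3 (0.71) and the lipocalin gene Lcn2 (0.75). Nearest to Timp1 were the adhesion molecule gene Vcam1 (0.31), Gbp5, an interferon-induced GTPase (0.50), and the tubulin gene Tubb6 (0.52). Vcam1 averaged 9.81 in light-exposed RPE and 6.55 in control RPE. In the NSR its means were 8.63 with light and 6.89 in controls.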

How the data were processed

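RNA of the RPE and NSR of 8 mice was labelled after whole-transcript amplification and measured on 16 Affymetrix Mouse Gene arrays. The deposited values are log2 expression values of 35556 transcript clusters. RMA and Partek 6.6 are named for them in the submitters' processing notes. Joint normalization of the arrays and a genome build are not stated there. RMA draws arrays to a common distribution, which can move differences between tissues. Clusters were named through the platform annotation: 21789 had 1 gene symbol, 1621 several and 12146 none. The brightest single-symbol cluster stood for a gene, which gave 19938 genes, tested without a filter on dim genes.

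Light was tested within each tissue (8 arrays) and the other contrasts in a fit of all 16, with limma 3.58.1 in R 4.3.3 (lmFit and eBayes, Benjamini-Hochberg over all genes, called at an adjusted p under 0.05). The steps were tested on simulated data. No 2 of the 16 arrays were identical. The number of arrays, 4 per group, limits the precision. The genes, lists and tests were chosen with earlier results of these data known. All 10 genes are named, and from each list up to 3 of the called genes with the largest change in each light comparison. Reck, Serpinb2, Plg and the AP-1 genes were named outside this rule. NSR and RPE of 1 mouse carry the same identifier in the labels and are paired by animal, though their deviations from the group means correlated at only -0.011 to 0.053. The main fits of the difference and of the tissues did not use this pairing. Light-exposed and control mice with the same number are different animals (r of -0.017 to 0.066). Alternatives were scaling, a filter on dim genes, eBayes with trend, array weights, averaged clusters, a fold threshold, the fit of all arrays, a block and leaving out arrays. The block was the replicate number in the light comparisons and the mouse in the other contrasts. Promoters are from RefSeq (GRCm38.p6).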

Additional observations from a re-analysis of the deposited data

Results flagged for a closer look

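Among 40 groups of 4 arrays, 2 held an array whose gap to the nearest of the others exceeded Dixon's 95% limit as a share of the group's range, where chance gives about 1 in 20. Mmp14 stood at 7.43 in RPE light 1, while the rest of the group had 7.77 to 7.82. Timp3 stood at 11.72 in RPE light 3, while the rest had 12.06 to 12.08.

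The light response differed between the tissues for 7 genes in the test of the difference itself. RPE minus NSR on the log2 scale, it was 5.42 for Mmp3, 3.96 for Mmp12 and 1.72 for Timp1, and -1.07 for Mmp14, -1.46 for Timp2, -1.39 for Timp3 and -1.17 for Adamts1.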

How the results depend on the processing

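Of the 10 genes, those called numbered 5 in the RPE, 6 in the NSR and 7 in the difference under each left-out array and under a block. The block was the replicate number in the light comparisons, though it joins different animals, and the mouse in the other contrasts. Over all genes it gave 2984 calls in the RPE, 2728 in the NSR and 2284 in the difference. Between the tissues it gave 10765 in control mice (5 of the 10) and 11305 in light-exposed mice (6 of the 10). No call of the 10 was ended by it. With a change of at least 2-fold also asked for, calls fell to 295 genes in the RPE (3 of the 10), 269 in the NSR (3 of the 10), 433 in the difference, 3275 for the tissues of control mice (3 of the 10) and 3041 for those of light-exposed mice; this setting drops small changes by construction. Leaving out the 3 arrays that stood apart (RPE light 1, RPE light 2, RPE control 2), 2056 genes were called in the RPE, with fewer arrays. Leaving out single arrays gave 3 to 5 of the 10 genes called between the tissues of control mice.

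Only values that had not passed the test changed sign. Mmp9 in the NSR was -0.01 with array weights. Between control tissues, centring and quantile normalization gave Mmp3 0.08 and 0.08, Mmp12 0.11 and 0.11, Timp1 0.12 and 0.13, and Timp4 0.10 and 0.11, and Adamts1 was -0.04 without the 3 arrays. Between light-exposed tissues they gave Mmp9 0.07 and 0.06, and Mmp14 0.07 and 0.02, and Mmp14 was 0.03 without the 3 arrays. Over single left-out arrays, the light response in the RPE ranged from -0.03 to 0.10 for Mmp2, from -0.07 to 0.10 for Mmp14 and from -0.04 to 0.29 for Adamts1, and in the NSR from -0.05 to 0.15 for Mmp3 and from -0.07 to 0.07 for Mmp9. Between control tissues the ranges were -0.18 to 0.05 for Mmp3, -0.12 to 0.12 for Mmp12, -0.12 to 0.04 for Timp1 and -0.04 to 0.29 for Adamts1, which was called without RPE control 1 (0.29, limma adjusted p = 0.0372). Between light-exposed tissues they were -0.13 to 0.01 for Mmp9 and -0.13 to 0.03 for Mmp14. Mmp2 and Timp4 were called between light-exposed tissues after centring (0.24 and 0.25) and quantile normalization (0.24 and 0.23).

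Centring and quantile normalization moved the median of all genes between control tissues to 0.19 and 0.15, against 0.04 as deposited, and the share of calls that were higher in the RPE to 72.2% and 66.4%, against 56.0%. Between light-exposed tissues the median was 0.20 and 0.17 against 0.08, and the share 73.0% and 67.7% against 59.3%. As deposited, the array medians were 6.38 to 6.43 in the RPE and 6.52 to 6.57 in the NSR. Both settings make the array medians equal by construction, which moves every difference of RPE minus NSR upward. Why the deposited medians differed between the tissues was not tested.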
